A study of Homo sapiens with 9 samples.

Results

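Huh-7 tumours that had received an adenovirus carrying HNF4A (Ad-HNF4A) were compared, across all genes, with tumours of the same line injected with the control adenovirus Ad-GFP. Huh-7 is an established human hepatocellular carcinoma cell line. The comparison rests on 6 of the 9 libraries of the study, 3 for each vector, and members were taken by the vector in the sample titles alone. The separate treatment labels of Ad-HNF4A replicates 2 and 3 differ from their titles by a digit in the gene name, and those of 2 Ad-K458R libraries likewise. In both groups the cells had been grown under the skin of NOD/SCID mice, which lack functional T and B lymphocytes. The virus was injected into the tumour every 4 days over 8 days once the tumour had reached about 100 mm3. Both groups received an adenovirus, so every difference below is between a virus with HNF4A and a virus with GFP. The remaining 3 libraries came from tumours given Ad-K458R, which encodes HNF4A with a changed residue, and serve here in the shared estimate of spread. The sources used here do not give the promoter that drives the insert, the viral dose, the number of mice or whether tumours were pooled.

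HNF4A is a nuclear receptor that binds DNA as a homodimer and stands near the top of the transcription factor network of the hepatocyte. It is known for driving genes of lipoprotein assembly, bile acid and glucose metabolism, detoxification and clotting factor production, and it is also needed in the epithelium of the intestine and the proximal tubule of the kidney. Liver carcinomas often lose part of this hepatocyte programme.

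The libraries held between 15933702 and 23171796 counts on genes, so 1 count was worth 0.0442 to 0.0626 CPM (counts scaled to a common library total with TMM factors, as described under processing). The libraries labelled Ad-HNF4A and Ad-GFP separated along the first principal component of all 9 libraries, which held 36.1% of the variance. The Ad-HNF4A replicate 1 stood apart from the other 8 libraries. Its score along the next component, which held 12.7% of the variance, was 46.1, and theirs ranged from -11.2 to 4.12. Among the genes that weighed most on that component, APOLD1 stood at 17.5, 2.26 and 1.61 CPM and HLA-B at 15.3, 2.79 and 3.48 CPM in Ad-HNF4A replicates 1, 2 and 3, and no count of the squamous keratins KRT13, KRT5 and KRT6A was found in replicate 1. The share of counts on mitochondrial genes was 6.46% to 7.24% with Ad-GFP and 5.64% to 5.91% with Ad-HNF4A, so the groups did not overlap in that share. Hepatoma markers were abundant in all 6 libraries, with summed levels of 36420 to 37640 CPM in Ad-GFP and 36070 to 38560 CPM in Ad-HNF4A over 14 genes.

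HNF4A itself (20:44355700-44434596, plus strand) was read at 154, 169.6 and 182 CPM in Ad-GFP replicates 1 to 3 and at 3700, 3507 and 5391 CPM in Ad-HNF4A replicates 1 to 3. Every Ad-HNF4A library lay far above every Ad-GFP library, and replicate 3 was the highest. Its means were 169 ± 14.4 CPM and 4199 ± 1036 CPM (SD, n = 3 each), a ratio of 24.9, and the log2 fold change was 4.64 ± 0.18 (standard error throughout) with an adjusted p of 7.4e-06. The counts are per gene, so RNA from the vector and from the tumour's own locus cannot be told apart. The exact two-sided permutation test of these values gave p = 0.1, the smallest p that 3 libraries against 3 allow. HNF4A-AS1, the long noncoding RNA on the opposite strand within the HNF4A locus (20:44372746-44395706), rose from 0.8399, 0.544 and 0.242 CPM to 2.82, 2.96 and 4.29 CPM (log2 fold change 2.61 ± 0.34, adjusted p = 0.0015). None of its 6 annotated exons overlaps an annotated HNF4A exon in GENCODE 29, but the sources used here do not say whether the counting used strand.

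Of 16697 genes tested, 527 were higher with Ad-HNF4A (3.16%) and 51 were lower (0.305%) at an adjusted p under 0.05, so 3.46% were called in either direction. The shares of 3.16% and 0.305% stand beside every list count below. All lists were chosen with earlier results of these data known, so a larger share in a list is no support for it. In total 2777 genes had an unadjusted p under 0.05. The libraries did not overlap for any of the genes called, so a lack of overlap adds no support to a called gene below. By comparison, all 3 Ad-HNF4A libraries lay above all 3 Ad-GFP libraries in 12.2% of all genes tested and below them in 9.16%. The rises were also the larger changes, with 297 of them at 2-fold or more against 3 of the falls. The median log2 fold change was 1.16 over the genes that rose, -0.36 over those that fell and 0.0058 over all genes tested. Of the genes that rose, 111 changed by less than 1.5-fold, as did 37 of those that fell. Protein-coding genes made up 487 of the genes that rose and 47 of those that fell. In 334 of the 527 genes that rose, the highest of the Ad-HNF4A libraries was replicate 3, the one with the highest HNF4A level. It was the highest of its group in 5309 of all 16697 genes.

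The calls were sensitive to single libraries, and more so for the falls. Leaving out Ad-GFP replicate 1, 2 or 3 gave 342, 328 and 364 genes higher and 14, 16 and 18 lower. Leaving out Ad-HNF4A replicate 1, 2 or 3 gave 407, 625 and 333 higher and 29, 131 and 26 lower. In all 6 of these fits, 266 of the 527 rises and 3 of the 51 falls were called. Below, a gene is said to have held when it was called in all 6.

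**Figure D1:**
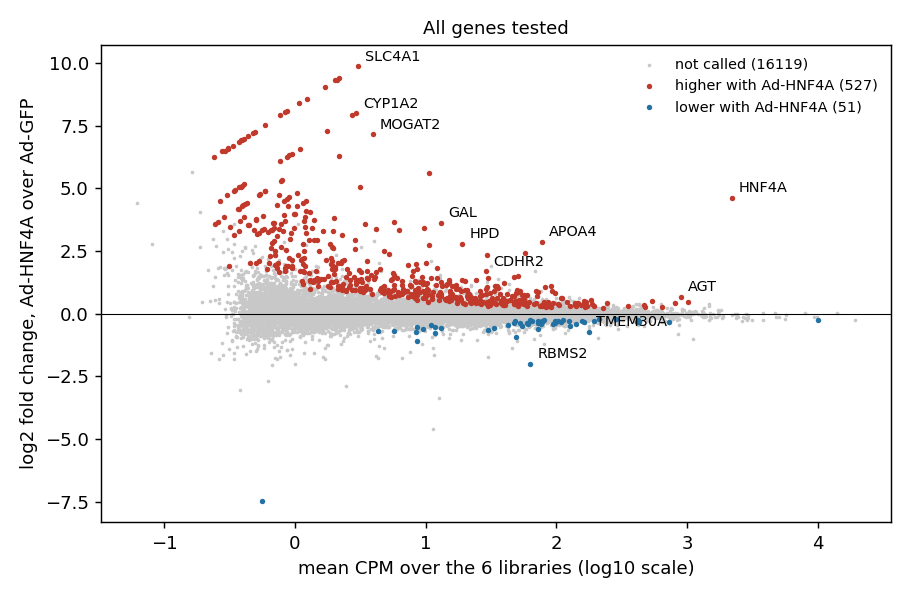
Log2 fold change between Ad-HNF4A and Ad-GFP tumours (y axis) against the mean CPM over the 6 libraries (x axis, log10 scale) for the 16697 genes tested, 1 point per gene. The 527 genes called higher (red) reach much larger fold changes than the 51 called lower (blue), and RBMS2 and TMEM30A stand out among the falls.

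Genes already expressed in the control tumours gave a clear set of large rises. APOA4, an apolipoprotein of intestine and liver, stood at 21.5, 16.04 and 18.1 CPM in the Ad-GFP libraries and at 131, 116 and 163 CPM in the Ad-HNF4A libraries (log2 fold change 2.88 ± 0.14, adjusted p = 6.1e-06). HPD, the dioxygenase that carries out the second step of tyrosine breakdown, went from 5.35, 4.08 and 4.88 CPM to 30.2, 32.97 and 36.6 CPM (2.80 ± 0.12, adjusted p = 8.4e-07). In both genes the lowest Ad-HNF4A library lay several times above the highest Ad-GFP library. EFHD1, a calcium-binding protein of mitochondria, rose from 2.299, 3.21 and 2.85 CPM to 20.5, 22.9 and 12.4 CPM (2.74 ± 0.23), with replicate 3 the lowest of its group. ACSL5, which activates long-chain fatty acids by joining them to coenzyme A, rose from 16.97, 19.04 and 17.98 CPM to 80.7, 85.2 and 125 CPM (2.43 ± 0.16). AQP3, a channel for water and glycerol, rose from 9.77, 10.99 and 8.17 CPM to 44.6, 42.1 and 61.8 CPM (2.36 ± 0.18). For ACSL5 and AQP3 replicate 3 was the highest library and the other 2 were close to each other. All 5 genes held.

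The next rises in size covered the cell surface, hormone synthesis and methyl group metabolism. SULF2, an extracellular sulfatase that edits heparan sulfate, changed from 4.86, 4.03 and 2.95 CPM to 13.2, 12.1 and 22.9 CPM (log2 fold change 2.02 ± 0.26). ITGA3, the alpha subunit of a laminin-binding integrin, changed from 3.01, 3.37 and 3.87 CPM to 16.6, 10.2 and 13.6 CPM (1.98 ± 0.20). CYP19A1, the aromatase that makes oestrogens from androgens, changed from 2.74, 3.15 and 3.24 CPM to 10.2, 10.3 and 14.5 CPM (1.94 ± 0.17). The Ad-HNF4A libraries were at least as spread as the Ad-GFP libraries in each. BHMT, which remethylates homocysteine with betaine, rose from 6.1, 5.66 and 4.54 CPM to 15.97, 16.8 and 24.4 CPM (1.81 ± 0.17). CDHR2, an adhesion protein that links microvilli, rose from 14.99, 11.6 and 14.3 CPM to 40.4, 37.3 and 54.5 CPM (1.69 ± 0.15), and WNT11, a secreted Wnt ligand, rose from 2.74, 3.05 and 2.51 CPM to 9.02, 6.79 and 9.54 CPM (1.61 ± 0.16). Log2 fold changes of 1.77 ± 0.20 for RILPL2, 1.70 ± 0.15 for STAG3, a meiotic cohesin subunit, and 1.80 ± 0.23 for FOLH1B complete the largest 15. FOLH1B is a pseudogene of FOLH1 and STAG3 has copies elsewhere in the genome, so reads of both may be shared. All of these held.

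**Figure D2:**
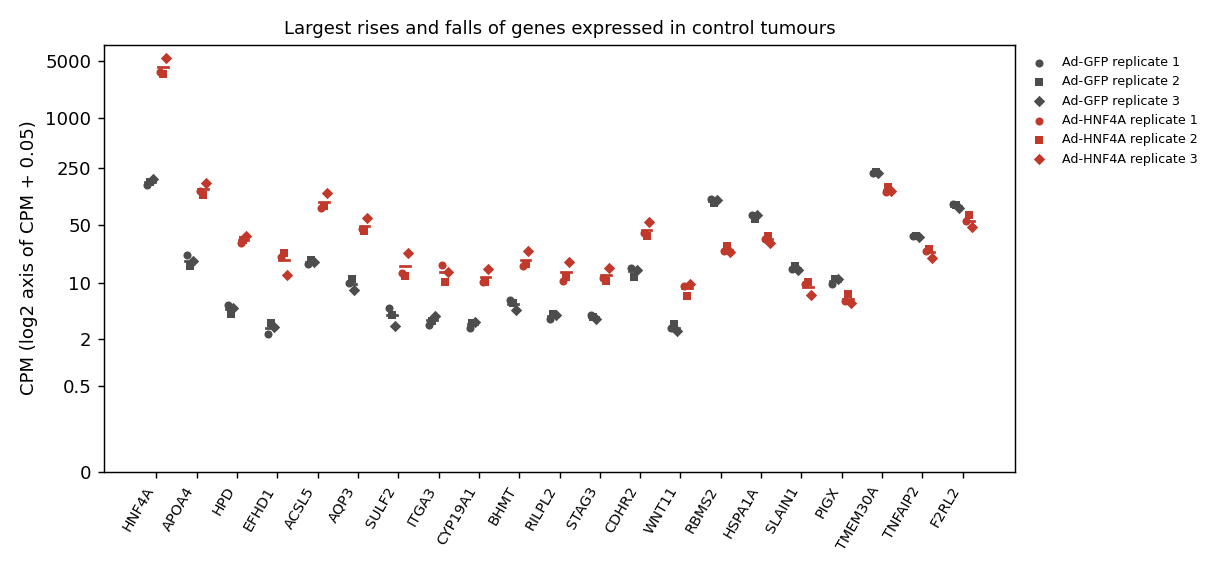
CPM in each library (log2 axis of CPM + 0.05) of 14 of the 15 genes with the largest rises, from HNF4A to WNT11, and of 7 of the 15 with the largest falls, from RBMS2 to F2RL2. Grey symbols are Ad-GFP libraries, red symbols Ad-HNF4A libraries, the symbol shape gives the replicate and the short line the mean of 3. In no gene shown do the groups overlap, which was a condition of the choice.

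A further group went from almost no reads to a measurable level. SLC4A1, the band 3 anion exchanger of red cells and of kidney collecting duct, had no count in any Ad-GFP library and 5.64, 4.47 and 8.07 CPM in the Ad-HNF4A libraries. Against the level that 3 counts over the Ad-GFP group allow (0.0486 CPM) it was at least 125-fold higher (adjusted p = 4.6e-05). NR1I3, the xenobiotic receptor known as CAR, was likewise without a count in Ad-GFP and stood at 3.38, 4.41 and 5.197 CPM with Ad-HNF4A, at least 89.1-fold higher (adjusted p = 3.2e-05). All 3 Ad-HNF4A libraries of both genes held counts, but a lack of overlap was a condition of their choice. G6PC, the phosphatase that releases glucose from glucose 6-phosphate, was at 0 in Ad-GFP and at 2.38, 3.19 and 6.66 CPM with Ad-HNF4A (at least 83.9-fold, adjusted p = 0.021), but its spread was wide. CEACAM20, an adhesion molecule of intestinal microvilli, was at 0 and then at 1.57, 1.92 and 2.98 CPM (at least 44.3-fold).

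The same pattern was seen for genes not typical of liver. MYH6, a cardiac myosin heavy chain, reached 2.38, 2.79 and 2.27 CPM from 0 (at least 50.98-fold), and TUBA3D, an alpha tubulin with a near-identical copy, reached 3.63, 3.13 and 3.48 CPM from 0 (at least 70.3-fold). AP000851.2, an entry with no established function, reached 4.07, 3.25 and 5.197 CPM from 0 (at least 85.8-fold). Single counts in the Ad-GFP group were found for CYP1A2, a drug-metabolising cytochrome P450, BIN2, a membrane-shaping protein of leukocytes, and CORO2B, a coronin. CYP1A2 had 1 count in the Ad-GFP group and 312 in the Ad-HNF4A group, a ratio scaled for depth of 363 (95% interval 64.7 to 14390). BIN2 (1 against 295 counts) had a ratio of 343 (95% interval 61.1 to 13610), and CORO2B (1 against 190 counts) a ratio of 221 (95% interval 39.2 to 8780). These intervals cover counting error only and are wide because of the single control count. In all, 24 of the genes that rose had no count in Ad-GFP. Of the 101 genes tested whose Ad-GFP mean was under 0.1 CPM, 80 were called higher, but such genes entered the test only through another group, so that share is no support. That limit also holds in the list counts below for each gene whose Ad-GFP levels alone were too low for it to enter the test. PFKFB1, C4A and C4B are among these. All genes of these 2 paragraphs held except G6PC, whose call was lost without Ad-GFP replicate 1, 2 or 3 (highest adjusted p = 0.057).

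The study's title concerns the K458R form of HNF4A in hepatocellular carcinoma, and HNF4A's known targets are described first. In a list of 44 genes that textbooks give as targets, 40 were tested, 17 rose and none fell, with a median log2 fold change of 0.46. A positive log2 fold change was found for 37 of the 40, and in 25 all 3 Ad-HNF4A libraries lay above all 3 Ad-GFP libraries, beside 12.2% of all genes. The count depended on the libraries used, with 10, 10 and 11 members called without Ad-GFP replicate 1, 2 and 3 and 15, 19 and 11 without Ad-HNF4A replicate 1, 2 and 3, and 9 held. Several of the classical members did not pass the test. MTTP, which loads lipid onto apolipoprotein B, had 376, 365 and 377 CPM in Ad-GFP and 420, 446 and 570.3 CPM with Ad-HNF4A (log2 fold change 0.36 ± 0.10, adjusted p = 0.074). TTR, the thyroxine carrier, was at 658, 503 and 590.2 and 587, 623 and 662 CPM (adjusted p = 0.68) and its groups overlapped. APOB had a log2 fold change of 0.04 ± 0.05 (adjusted p = 0.75) at 7832 ± 188 and 8068 ± 438 CPM (mean ± SD, n = 3 each).

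**Figure D3:**
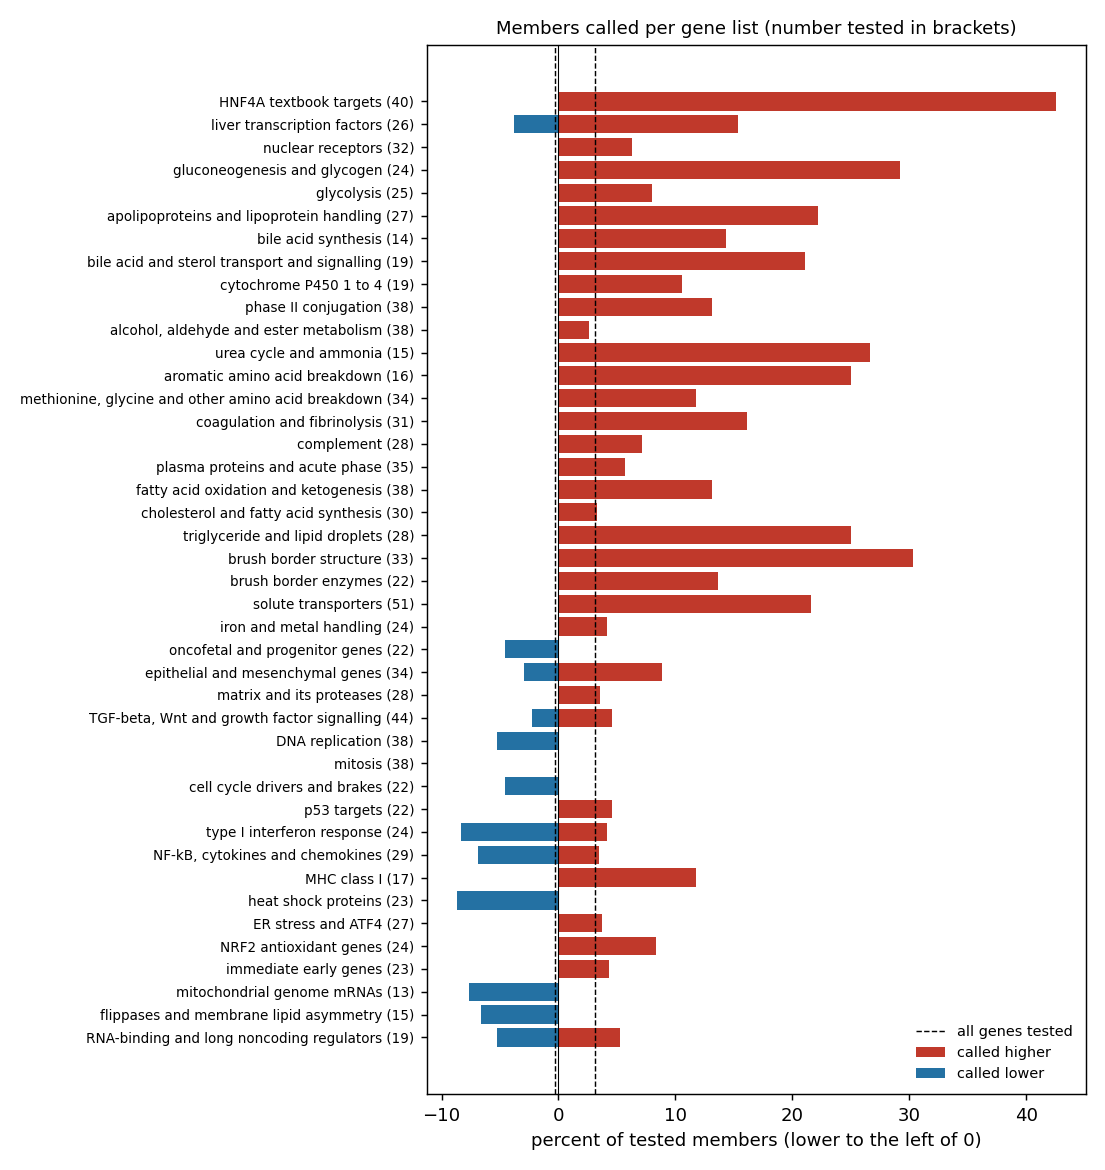
Share of tested members called higher (red, to the right) and lower (blue, to the left of 0) for each pathway list, with the number tested in brackets. The dashed lines mark the shares over all genes tested, 3.16% higher and 0.305% lower. Textbook HNF4A targets, brush border structure and gluconeogenesis have the longest bars to the right. Most lists of stress, cycle and immune genes have none or 1 or 2 members called. All lists were chosen with earlier results of these data known, so a long bar is no support for a list.

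Of 26 tested liver transcription factors other than HNF4A, 4 rose and 1 fell, with a median log2 fold change of 0.10. Both shares are above those of all genes, 3.16% higher and 0.305% lower. CREB3L3, a membrane-bound factor that controls triglyceride metabolism, rose from 69, 58.7 and 65.3 CPM to 108, 114 and 139 CPM (0.90 ± 0.10, adjusted p = 0.00045). MLXIPL, the carbohydrate-sensing factor ChREBP, rose from 4.51, 4.57 and 3.29 CPM to 10.1, 7.08 and 10.4 CPM (1.16 ± 0.18, adjusted p = 0.0046). Both held, and neither had overlapping groups. TFEB, a regulator of lysosomes, rose by 1.08 ± 0.26, and ONECUT2, a factor of early liver development, fell by 0.26 ± 0.06, and each kept its call in 1 of the 6 fits. FOXA2 (adjusted p = 0.64) and CEBPA (adjusted p = 0.25) did not pass.

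Among 32 tested nuclear receptors 2 rose, beside 3.16% of all genes. They were NR1I3 as above and NR0B2, the small heterodimer partner that represses bile acid synthesis. NR0B2 was at 3.89, 1.63 and 3.62 CPM in Ad-GFP and 8.02, 5.98 and 9.94 CPM with Ad-HNF4A (1.38 ± 0.29, adjusted p = 0.028). Its call was lost without Ad-GFP replicate 3, Ad-HNF4A replicate 1 or Ad-HNF4A replicate 3 (highest adjusted p = 0.1). NR1H4, the bile acid receptor FXR, was at 26.7 ± 0.638 and 25.1 ± 2.12 CPM (adjusted p = 0.68).

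Promoter windows of RefSeq genes (GRCh38.p14, from 250 bases before the start to 50 bases after it) were searched on both strands for the letters CAAAGNNCA, a loose form of the HNF4 core motif, where N is any base. Windows were found for 11342 of the genes tested and for 376 of the 527 that rose. The motif was present in 3.95% of all windows, in 9.04% of those of genes that rose (34 genes), in 9.09% of those of genes that fell (4 of 44 genes) and in 3.75% of those of genes not called. The stricter CAAAGTCCA, which is contained in the loose form, was in 0.388% of all windows, in 1.6% of those of genes that rose (6 genes) and in 2.27% of those of genes that fell (1 gene). Among genes at least 2-fold higher it was in 0.948%. The single receptor site AGGTCA was in 10.2% of all, 14.9% of risen and 6.82% of fallen genes. A match describes the letters and shows no binding. To show where the letters lie, 7 genes that rose and belong to the groups described below are given by part of their window upstream of the start, 5′ to 3′ on the gene's strand, with the motif in capitals. The first line is CA5A at chr16:87936629-87936727 (minus strand), followed by GLYAT at chr11:58731944-58732027 (minus), RBP2 at chr3:139476543-139476641 (minus), APOM at chr6:31655644-31655733 (plus), MOGAT3 at chr7:101201037-101201126 (minus), ANKS4B at chr16:21233570-21233668 (plus) and PFKFB1 at chrX:54994364-54994438 (minus). In RBP2, ANKS4B and PFKFB1 the capitals are the motif read on the other strand.
CA5A: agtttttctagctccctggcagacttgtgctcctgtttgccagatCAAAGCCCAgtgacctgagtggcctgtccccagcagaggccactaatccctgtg
GLYAT: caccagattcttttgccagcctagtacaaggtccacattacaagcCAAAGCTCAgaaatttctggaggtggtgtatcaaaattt
RBP2: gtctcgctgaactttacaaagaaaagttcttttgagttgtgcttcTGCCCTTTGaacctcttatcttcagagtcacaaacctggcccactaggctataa
APOM: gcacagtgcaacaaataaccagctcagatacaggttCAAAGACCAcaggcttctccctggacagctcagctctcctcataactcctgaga
MOGAT3: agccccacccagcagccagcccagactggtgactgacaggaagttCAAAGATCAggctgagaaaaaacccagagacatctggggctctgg
ANKS4B: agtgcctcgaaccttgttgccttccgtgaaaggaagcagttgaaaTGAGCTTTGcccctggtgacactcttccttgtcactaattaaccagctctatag
PFKFB1: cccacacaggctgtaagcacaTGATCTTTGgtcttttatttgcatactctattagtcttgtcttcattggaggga

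Apolipoproteins carry lipids in plasma and are made mainly in liver and intestine. Of 27 tested genes of apolipoproteins and lipoprotein handling, 6 rose and none fell (median 0.13), and APOA4 and APOA1 held. APOA1, the main protein of high-density lipoprotein, stood at 817, 846 and 869.7 CPM in Ad-GFP and at 1237, 1005 and 1250 CPM with Ad-HNF4A (log2 fold change 0.46 ± 0.08, adjusted p = 0.0095). The lowest Ad-HNF4A library lay above all Ad-GFP libraries. APOA1, APOC3 and APOA4 are neighbours on chromosome 11, and APOC3, an inhibitor of triglyceride clearance, changed from 21.04, 18.1 and 20.4 to 30.2, 25.8 and 41.2 CPM (0.71 ± 0.15). APOE, a ligand of lipoprotein receptors, changed from 647, 661 and 728 to 1015, 931 and 806 CPM (0.43 ± 0.09), APOM, a carrier of sphingosine 1-phosphate whose promoter is shown above, from 29.04, 26.9 and 27.2 to 44.9, 34.6 and 48.8 CPM (0.63 ± 0.13), and APOA2 from 419.8, 468 and 418 to 531, 499 and 524 CPM (0.25 ± 0.06). These last 4 were called in only 1 or 2 of the 6 fits, and the counts for the list without Ad-GFP replicate 1, 2 and 3 were 2, 3 and 3 and 3, 6 and 3 without Ad-HNF4A replicate 1, 2 and 3.

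Bile acids are made from cholesterol in the hepatocyte. Of 14 tested synthesis genes 2 rose and both held. CYP8B1, the hydroxylase that sets the share of cholic acid, had no count in Ad-GFP and 1.503, 1.04 and 2.52 CPM with Ad-HNF4A (at least 34.8-fold higher, adjusted p = 0.00075). BAAT, which joins bile acids to glycine or taurine, rose from 7.34, 9.301 and 10.2 CPM to 17.3, 18.9 and 24.2 CPM (1.17 ± 0.16, adjusted p = 0.0016). CYP27A1, the first enzyme of the alternative pathway, was at 66.5, 58.96 and 65.7 and 84.9, 74.3 and 111 CPM, without overlap but not past the test (adjusted p = 0.066). CYP7A1, the first enzyme of the main pathway, had at most 0.125 CPM in any of the 6 libraries and was not tested. Among 19 genes of bile acid and sterol transport and signalling 4 rose. ABCB11, the canalicular export pump for bile salts, rose from 2.299, 1.36 and 2.37 CPM to 4.57, 6.09 and 5.05 CPM (1.37 ± 0.21, adjusted p = 0.0046) and held. ABCB1 (0.33 ± 0.06), ABCG8 (0.77 ± 0.17) and SLCO2B1 (0.35 ± 0.08) rose by less and did not hold, and the number called was 2, 2 and 1 when Ad-GFP replicate 1, 2 or 3 was left out and 4, 4 and 1 when the Ad-HNF4A ones were. SLC10A1, the bile acid uptake carrier, had at most 0.232 CPM in any library and was not tested.

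Glucose release by liver runs through gluconeogenesis, glycogen and glucose 6-phosphatase. Of 24 tested genes of this group 7 rose and none fell, with a median log2 fold change of 0.27. PCK1, the cytosolic enzyme that makes phosphoenolpyruvate, had 2 counts in the Ad-GFP group and 37 in the Ad-HNF4A group (0.814, 0.871 and 0.454 CPM), a ratio of 21.5 (95% interval 5.55 to 184). PCK1 held and its groups were separate, though it remained below 1 CPM. FBP1, fructose bisphosphatase, rose from 3.58, 3.43 and 4.495 CPM to 6.14, 7.72 and 8.78 CPM (0.98 ± 0.20, adjusted p = 0.022). PCK2, the mitochondrial form of PCK1, rose by 0.36 ± 0.06, GYS2, the liver glycogen synthase, by 1.82 ± 0.35, and GPT, alanine aminotransferase, by 1.11 ± 0.24. With G6PC these genes lost their call without at least 1 library. The list's count was 4, 4 and 3 without Ad-GFP replicate 1, 2 and 3 and 6, 9 and 4 without Ad-HNF4A replicate 1, 2 and 3.

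Of 25 tested glycolytic genes 2 rose. PFKFB1, the liver enzyme that makes and removes fructose 2,6-bisphosphate and whose promoter is shown above, rose from 0.221, 0.544 and 0.483 CPM to 1.31, 2.03 and 2.27 CPM (2.19 ± 0.39, adjusted p = 0.011) and held. PKLR, the pyruvate kinase of liver, rose from 4.73, 4.51 and 4.398 to 10.3, 5.92 and 10.7 CPM (0.98 ± 0.21, adjusted p = 0.032) but was called only in the fit without Ad-HNF4A replicate 2, its lowest library (highest adjusted p = 0.12). PKM, the pyruvate kinase of most tumours, was at 938, 1034 and 1031 CPM and at 928, 688 and 592 CPM, a log2 fold change of -0.44 ± 0.19 that did not pass (adjusted p = 0.29).

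Amino acid breakdown and ammonia disposal gave some of the clearest rises. Of 15 tested genes of the urea cycle and ammonia handling 4 rose (median 0.57). CA5A, the mitochondrial carbonic anhydrase that supplies bicarbonate to the urea cycle, rose from 1.19, 1.69 and 1.498 CPM to 8.39, 6.85 and 9.29 CPM (2.49 ± 0.19, adjusted p = 4.6e-05). ASS1, which joins citrulline and aspartate, rose from 56.3, 50.3 and 52.5 CPM to 109.9, 92.5 and 133 CPM (1.07 ± 0.11, adjusted p = 0.0004). RHBG, an ammonia channel, rose from 7.07, 5.44 and 4.98 CPM to 12.03, 12.5 and 15.1 CPM (1.18 ± 0.15, adjusted p = 0.0015). All 3 held with no overlap, whereas NAGS, which makes the activator of the cycle, rose by 0.89 ± 0.19 and was called in 1 of the 6 fits (highest adjusted p = 0.12). CPS1, the entry enzyme of the cycle, was at 48.2, 55.9 and 58.8 CPM in Ad-GFP and at 62.1, 61.8 and 118 CPM with Ad-HNF4A, and ARG1, the last enzyme, at 4.55, 5.82 and 5.46 and 6.51, 4.18 and 27.9 CPM. In both, replicate 3 alone was far above the control libraries, and neither passed (adjusted p = 0.34 and 0.41).

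Of 16 tested genes for aromatic amino acids 4 rose, led by HPD. KYNU, which cleaves kynurenine, rose from 10.96, 10.9 and 12.5 CPM to 16.4, 16.6 and 17.8 CPM (0.56 ± 0.09, adjusted p = 0.0078) and held. AFMID (0.44 ± 0.10) and FAH (0.34 ± 0.08), the last enzyme of tyrosine breakdown, were called in 1 and 0 of the 6 fits (highest adjusted p = 0.14 and 0.15). In the list of methionine, glycine and other amino acids 4 of 34 rose. Beside BHMT, PRODH2, the hydroxyproline dehydrogenase, rose from 0.619, 0.653 and 1.11 CPM to 3.44, 2.79 and 2.93 CPM (1.93 ± 0.25, adjusted p = 0.0015), and both held. PIPOX, a peroxisomal oxidase, rose by 0.89 ± 0.17 and GCSH, a subunit of the glycine cleavage system, by 0.69 ± 0.17. PIPOX lost its call without each Ad-GFP replicate (highest adjusted p = 0.064) and GCSH in 4 of the 6 fits (highest adjusted p = 0.17).

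Genes of fat storage and fat burning both included rises. Of 28 tested triglyceride and lipid droplet genes 7 rose, none fell, and the median was 0.33. MOGAT2, which acylates monoacylglycerol in the intestine, had 3 counts in the Ad-GFP group and 421 in the Ad-HNF4A group (7.52, 6.85 and 9.23 CPM), a ratio of 163 (95% interval 55.5 to 795). CIDEB, a lipid droplet protein needed for lipidation of very low density lipoprotein, rose from 28.9, 27.1 and 24.2 CPM to 69.3, 66.5 and 90.9 CPM (1.5 ± 0.12, adjusted p = 6.6e-05). CIDEC, its relative that enlarges droplets, rose from 36.6, 41.2 and 30.2 CPM to 63.8, 57.6 and 75.5 CPM (0.87 ± 0.12, adjusted p = 0.0024). PNPLA2, the lipase that starts triglyceride breakdown, went in the same direction, from 33.8, 31.9 and 36.8 CPM to 71.8, 56.9 and 68.3 CPM (0.94 ± 0.11, adjusted p = 0.00053), as did PLIN4, a droplet coat protein (1.10 ± 0.17). These 5 held. MOGAT3, whose promoter is shown above, rose by 0.57 ± 0.12 and AGPAT1 by 0.30 ± 0.07, with calls in 2 and 1 of the 6 fits (highest adjusted p = 0.094 and 0.17).

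In fatty acid oxidation and ketogenesis 5 of 38 tested genes rose (median 0.20), and in 19 all 3 Ad-HNF4A libraries lay above all 3 Ad-GFP libraries, beside 12.2% of all genes. ACSL5 was described above. ACAA1, the peroxisomal thiolase, rose from 117, 123 and 131 CPM to 180.1, 162 and 165 CPM (0.45 ± 0.06, adjusted p = 0.0021). ACSM2B rose from 5.35, 5.87 and 6.67 CPM to 15.5, 13.99 and 18.6 CPM (1.43 ± 0.14) and ACSM2A by 1.47 ± 0.22. These are near-identical neighbouring genes for medium-chain acyl-CoA synthetases, so how reads were split between them is uncertain. These 4 genes held. In cholesterol and fatty acid synthesis only DHCR7 rose of 30 genes tested, a share close to that of all genes. DHCR7, the last enzyme of one branch of cholesterol synthesis, went from 471, 437 and 431 CPM to 659.9, 613 and 614 CPM (0.49 ± 0.06, adjusted p = 0.0012) and held. FASN (adjusted p = 0.64), SCD (0.96) and HMGCS1 (0.55) did not pass.

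The brush border is the carpet of microvilli on absorptive epithelia of gut and kidney, held together by actin bundles and by cadherins at the tips. Of 33 tested genes for its structure 10 rose, none fell and the median was 0.23. The tip-link cadherins rose together, CDHR2 as given above and CDHR5, its binding partner, from 9.06, 8.21 and 9.23 CPM to 22.4, 17.9 and 23.4 CPM (1.26 ± 0.15, adjusted p = 0.00074). SLC9A3R1, the scaffold NHERF1 beneath the apical membrane, rose from 141, 141 and 139 CPM to 203, 179.9 and 207 CPM (0.49 ± 0.07, adjusted p = 0.0025). The groups were separate in both. EPS8L3, an actin-binding relative of EPS8, rose by 0.48 ± 0.08, and with CDHR2, CDHR5, SLC9A3R1 and CEACAM20 made 5 that held. ANKS4B, a scaffold of the tip-link complex whose promoter is shown above, rose from 21.1, 19.7 and 20.8 to 26.6, 26.8 and 30.98 CPM (0.45 ± 0.09). EPS8L1 (3.29 ± 0.60), ESPN (0.60 ± 0.14), an actin bundler, and the membrane mucins MUC12 (0.98 ± 0.19) and MUC17 also rose, the last from 0, 0 and 0.145 CPM to 1.13, 0.406 and 0.606 CPM. These genes lost their call without at least 1 library, with highest adjusted p-values of 0.056 for EPS8L1, 0.094 for ANKS4B, 0.096 for MUC12, 0.14 for MUC17 and 0.16 for ESPN. The count for the list was 7, 5 and 8 without Ad-GFP replicate 1, 2 and 3 and 8, 9 and 6 without Ad-HNF4A replicate 1, 2 and 3. VIL1, the villin that bundles the core actin, was at 595 ± 44.6 CPM in Ad-GFP and 629 ± 23.2 CPM with Ad-HNF4A (adjusted p = 0.58), and MYO1A, the motor that ties actin to the membrane, was at 32.9, 30.4 and 31.8 and 40.1, 40.9 and 66.3 CPM (adjusted p = 0.091).

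**Figure D4:**
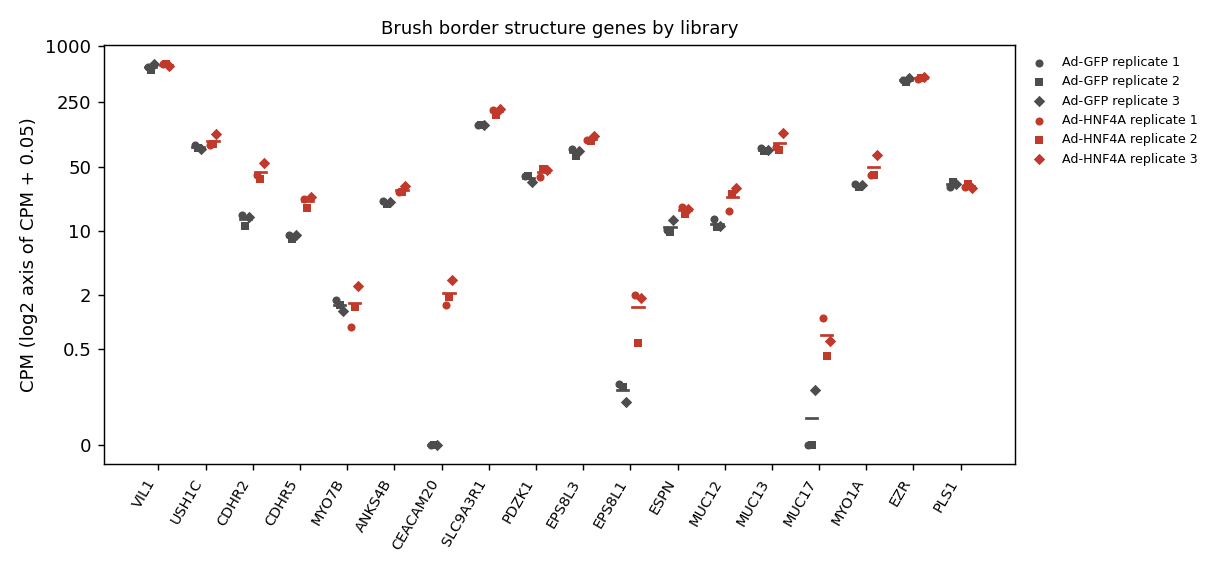
CPM in each library (log2 axis of CPM + 0.05) of 18 brush border structure genes, with Ad-GFP libraries in grey, Ad-HNF4A libraries in red, the replicate given by the symbol and the mean of 3 by a short line. CEACAM20 goes from 0 to between 1.57 and 2.98 CPM and CDHR2 and CDHR5 are separate between the groups, while VIL1 and EZR lie at nearly the same level in all 6 libraries.

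Of 22 tested brush border enzymes 3 rose, and the median of the list was 0.57. ENPP7, the intestinal sphingomyelinase, rose from 5.92, 5.66 and 4.35 CPM to 11.3, 11.1 and 16.4 CPM (1.29 ± 0.18, adjusted p = 0.0019). ALPP, an alkaline phosphatase with near-identical neighbours, had 1 count in Ad-GFP and 91 in Ad-HNF4A, a ratio of 106 (95% interval 18.5 to 4229). Both held, whereas XPNPEP2, an aminopeptidase that removes residues before proline, lost its call without Ad-GFP replicate 1, Ad-GFP replicate 2 or Ad-HNF4A replicate 3 (highest adjusted p = 0.062). MEP1A, a subunit of the metalloprotease meprin, was at 215, 223 and 220.1 and 244, 256 and 278 CPM without overlap, just outside the threshold (adjusted p = 0.052). Of the 9 tested enterocyte markers 2 rose, APOA4 and RBP2, beside 3.16% of all genes. All 9 had a positive log2 fold change, with a median of 0.32. RBP2, an intestinal retinol-binding protein whose promoter is shown above, went from 64.2, 74.6 and 71.04 CPM to 112, 109 and 153 CPM (0.84 ± 0.13, adjusted p = 0.0053). The intestinal factor CDX2 (adjusted p = 0.33) and the disaccharidase SI (adjusted p = 0.51) did not pass.

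Solute transporters contributed 11 rises among 51 tested, with no fall and a median of 0.28. SLC1A2, a glutamate transporter of brain and liver, had 3 counts in the Ad-GFP group and 226 in the Ad-HNF4A group (3.76, 5.51 and 3.58 CPM), a ratio of 87.7 (95% interval 29.6 to 428). SLC15A1, the peptide transporter of the gut, rose from 1.55, 1.09 and 2.37 CPM to 5.26, 4.88 and 6.36 CPM (1.71 ± 0.24, adjusted p = 0.0024). SLC3A1, part of the cystine carrier of kidney and gut, rose from 5.79, 5.87 and 5.61 CPM to 11.1, 11.1 and 13.2 CPM (1.03 ± 0.12, adjusted p = 0.00053). All 3 were separate between the groups. SLC6A12, a betaine transporter, rose from 12.2, 8.38 and 11.4 CPM to 21.98, 24.3 and 24.2 CPM (1.14 ± 0.14), and SLC26A6, an apical anion exchanger, from 43.5, 38.9 and 40.4 CPM to 66.3, 59.7 and 79.7 CPM (0.74 ± 0.10). SLC25A47, a mitochondrial carrier of liver, was at 0 in Ad-GFP and at 0.814, 0.522 and 0.908 CPM (at least 15.4-fold higher). With SLC4A1 and AQP3 these made 8 that held. SLC5A9 (0.68 ± 0.14), SLC22A7 (1.60 ± 0.35) and SLC38A3 (0.46 ± 0.11) were each called in 1 of the 6 fits, with highest adjusted p-values of 0.088, 0.13 and 0.16.

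In the P450 and phase II lists of detoxification genes, 2 of 19 and 5 of 38 tested members rose, beside 3.16% of all genes. CYP1A2, with 1 control count, and GLYAT, with none, entered the test only through another group. Their calls are no support for a larger share. Of 19 tested cytochrome P450 genes of families 1 to 4, CYP1A2 and CYP4F12 rose, the latter, a fatty acid hydroxylase, from 19.6, 20.6 and 18.4 CPM to 38.5, 31.6 and 44.7 CPM (0.97 ± 0.12, adjusted p = 0.00098), and both held. CYP1A1, the relative of CYP1A2 with the same inducing receptor, was at 58.3 ± 7.63 and 50.3 ± 1.83 CPM (adjusted p = 0.29). CYP3A4, the main drug-metabolising P450 of adult liver, had at most 0.353 CPM in any of the 6 libraries and was not tested. Of 38 phase II conjugation genes 5 rose, 35 had a positive log2 fold change, and in 13 all 3 Ad-HNF4A libraries lay above all 3 Ad-GFP libraries, beside 12.2% of all genes. GLYAT, which couples acids to glycine and whose promoter is shown above, was at 0 in Ad-GFP and at 1.06, 0.697 and 0.858 CPM (at least 17.96-fold higher, adjusted p = 0.0012). NAT2, an arylamine acetyltransferase, rose from 1.19, 0.925 and 1.21 CPM to 2.38, 2.902 and 2.77 CPM (1.27 ± 0.20, adjusted p = 0.0051). SULT1C2, a sulfotransferase, rose by 0.60 ± 0.11, UGT1A8 by 2.16 ± 0.39 and UGT1A1, the bilirubin-conjugating enzyme, by 0.97 ± 0.21. The UGT1A genes share exons, so their separate levels are uncertain. GLYAT, NAT2 and UGT1A8 held, SULT1C2 lost its call without Ad-GFP replicate 3 (adjusted p = 0.05), and UGT1A1 was called in 2 of the 6 fits (highest adjusted p = 0.11). Among 38 tested genes of alcohol, aldehyde and ester metabolism ALDH2 alone rose (0.36 ± 0.07), and it lost its call without each Ad-GFP replicate (highest adjusted p = 0.076).

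Among the secreted products of liver, ALB and FGB did not pass, while AGT, CPN2 and SERPINC1 rose and held. Of 35 tested plasma and acute phase protein genes 2 rose, beside 3.16% of all genes, and both held. AGT, the precursor of angiotensin, went from 711, 678 and 675 CPM to 1182, 978 and 1146 CPM (0.68 ± 0.08, adjusted p = 0.00069). CPN2, a subunit of carboxypeptidase N, went from 52.4, 43.4 and 48.6 CPM to 89.9, 87.3 and 96.4 CPM (0.92 ± 0.09, adjusted p = 0.00019). ALB, serum albumin, was at 3094, 3527 and 2668 CPM in Ad-GFP and at 2564, 2898 and 2795 CPM with Ad-HNF4A, with overlap between the groups (log2 fold change -0.17 ± 0.10, adjusted p = 0.43). In coagulation and fibrinolysis 5 of 31 rose. SERPINC1, antithrombin, rose from 22.4, 22.1 and 22.3 CPM to 42.5, 39.8 and 61.7 CPM (1.11 ± 0.15, adjusted p = 0.0021) and held. PLG, plasminogen, rose by 0.96 ± 0.19, F12 by 0.63 ± 0.12, F10 by 0.39 ± 0.09 and VWF, the endothelial carrier of factor VIII, by 1.92 ± 0.46. Each of these 4 lost its call whichever Ad-GFP replicate was left out. The count for the whole list, SERPINC1 included, was 1, 1 and 1 without Ad-GFP replicate 1, 2 and 3 and 3, 4 and 2 without the Ad-HNF4A ones. Fibrinogen FGB was at 1472 ± 28.6 and 1504 ± 72.1 CPM (adjusted p = 0.84). Of 28 complement genes C4B rose from 0.133, 0.218 and 0.0967 CPM to 1.82, 1.799 and 3.83 CPM and C4A from 0.309, 0.218 and 0.725 CPM to 1.44, 1.57 and 1.46 CPM, but these are near-identical neighbours and their split is uncertain. Of the 2, C4B held, and C4A was called in 1 of the 6 fits (highest adjusted p = 0.11). Both were too low in Ad-GFP to enter the test on that group alone, so their calls are no support for a larger share.

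Of 44 tested genes of TGF-beta, Wnt and growth factor signalling 2 rose and 1 fell, beside 3.16% and 0.305% of all genes. TGFBR1, the signalling receptor kinase for TGF-beta, went from 22.2, 24.9 and 23.97 CPM to 45.9, 48.99 and 49.1 CPM (1.02 ± 0.08, adjusted p = 5.2e-05), and IGFBP4, a binding protein of insulin-like growth factors, from 18.1, 17.3 and 18.3 CPM to 35.6, 32.7 and 33.4 CPM (0.92 ± 0.08, adjusted p = 0.00011). Both held, and in each the 3 libraries of a group lay close together. ACVR1, a BMP type I receptor, fell by 0.29 ± 0.07 and was called in 1 of the 6 fits (highest adjusted p = 0.15). Of 34 epithelial and mesenchymal genes 3 rose and 1 fell, beside the same shares of all genes. SNAI1, a repressor of E-cadherin, rose from 15.03, 12.1 and 13.9 CPM to 26.2, 21.4 and 31.6 CPM (0.95 ± 0.15, adjusted p = 0.0062) and held, while CDH1, E-cadherin, was at 119.5, 114 and 159 and 118, 159.5 and 128 CPM with overlap (adjusted p = 0.94) and VIM at 792, 751 and 876 and 581, 683 and 727 CPM (adjusted p = 0.12). The junction genes TJP3 (0.55 ± 0.12) and CLDN2 (0.41 ± 0.10) rose and the gap junction gene GJA1 fell by 0.26 ± 0.06, with calls in 2, 1 and 1 of the 6 fits. Of 28 matrix genes only COL6A1 rose (0.98 ± 0.17), a share close to that of all genes, and it held.

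Oncofetal and progenitor genes had 1 fall among 22 tested, CD24, a surface sialoglycoprotein, from 466, 459 and 501 CPM to 385, 404 and 331 CPM (log2 fold change -0.35 ± 0.08), a call kept in 1 of the 6 fits (highest adjusted p = 0.13). In 5 of the 22 the groups did not overlap, with Ad-HNF4A lower, beside 9.16% of all genes. GPC3 (adjusted p = 0.16), LIN28B (0.33) and AFP (0.86) did not pass. Proliferation genes had 3 falls in 3 lists, at a higher share in 2 of the lists than the 0.305% of all genes, and no rise. DNA replication had 2 falls in 38 (median -0.07), RRM1 (-0.29 ± 0.06) and RFC3 (-0.26 ± 0.06), mitosis none in 38 with a median of -0.10, and cell cycle drivers and brakes 1 in 22, CDK6, a G1 kinase that went from 108, 108 and 108 to 79.98, 91.8 and 73.2 CPM (-0.40 ± 0.08). All 3 Ad-HNF4A libraries lay below all 3 Ad-GFP libraries in 11 of the 38 DNA replication genes and 9 of the 38 mitosis genes, beside 9.16% of all genes. A positive log2 fold change was found for 8 and 10 of them. CDK6 and RRM1 were called in 1 of the 6 fits and RFC3 in none (highest adjusted p = 0.076, 0.12 and 0.16). MKI67, the Ki-67 proliferation antigen, was at 346, 303 and 168 CPM in Ad-GFP and at 126, 147 and 151 CPM with Ad-HNF4A, with a wide spread among the Ad-GFP libraries. The groups did not overlap, but it did not pass (-0.95 ± 0.42, adjusted p = 0.32). Of 22 tested p53 targets only PLK3 rose (1.02 ± 0.15), beside 3.16% of all genes, and it held. CDKN1A, the cell cycle inhibitor p21, was at 18.9, 16.2 and 17.1 and 40.8, 33.6 and 50.4 CPM (1.26 ± 0.29, adjusted p = 0.067).

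Of 24 tested interferon response genes 1 rose and 2 fell, beside 3.16% and 0.305% of all genes. IFIH1, the RNA sensor MDA5, rose from 4.91, 4.46 and 4.69 CPM to 7.77, 8.47 and 8.93 CPM (0.84 ± 0.13, adjusted p = 0.0043) and held, while OAS3 (-0.31 ± 0.07) and GBP1 (-0.68 ± 0.16) fell with calls in 1 of the 6 fits each. The NF-kB, cytokine and chemokine list had 1 rise and 2 falls among 29, beside the same shares of all genes. IL1B rose from 0.133, 0 and 0 CPM to 2.88, 0.638 and 0.858 CPM, highest in Ad-HNF4A replicate 1, and NFKB1 (-0.34 ± 0.07) and TNFAIP2 (-0.65 ± 0.15) fell, with none of the 3 holding (highest adjusted p = 0.14, 0.12 and 0.14). CXCL8 was at 94.5, 100.2 and 95.3 and 60.3, 68.7 and 31.7 CPM, lower in every Ad-HNF4A library, but did not pass (adjusted p = 0.14). Of 17 tested MHC class I genes 2 rose, among them HLA-C, which went from 6.32, 5.93 and 7.78 CPM to 20.2, 14.3 and 18.9 CPM (1.41 ± 0.22, adjusted p = 0.0049) and held. HLA genes are alike and variable in sequence, so their reads may be shared.

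Heat shock proteins had 2 falls of 23, HSPA1A (66.6, 60.3 and 67.1 against 34.3, 36.7 and 30.8 CPM, -0.93 ± 0.21) and HSPB8 (-0.49 ± 0.11). In 7 of the 23 all 3 Ad-HNF4A libraries lay below all 3 Ad-GFP libraries, beside 9.16% of all genes. HSPA1A has the near-identical neighbour HSPA1B and was called in none of the 6 fits (highest adjusted p = 0.19), and HSPB8 lost its call without each Ad-GFP replicate (highest adjusted p = 0.14). ER stress and ATF4 genes had 1 rise of 27, DDIT4 (0.62 ± 0.13), beside 3.16% of all genes. NRF2 antioxidant genes had 2 of 24, HMOX1 (0.43 ± 0.08), which degrades haem, and SOD2 (0.35 ± 0.08). HMOX1 was also the only rise of 24 tested iron and metal genes. Immediate early genes had 1 rise of 23, FOSB (0.92 ± 0.22). HMOX1 lost its call without Ad-GFP replicate 3 (adjusted p = 0.056), and DDIT4, SOD2 and FOSB were called in 1, 1 and 0 of the 6 fits. Of the 13 mRNAs of the mitochondrial genome MT-ND4 fell (-0.26 ± 0.06) but was called in none of the 6 fits (highest adjusted p = 0.14). The median of the 13 was -0.25. In 8 of them all 3 Ad-HNF4A libraries lay below all 3 Ad-GFP libraries, beside 9.16% of all genes. The lower mitochondrial share given above includes the counts of these mRNAs, so it is not a separate result.

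The falls that held were 3 in number. RBMS2, a protein that binds single-stranded RNA and DNA, stood at 104, 94.4 and 102 CPM in the Ad-GFP libraries and at 24.6, 27.9 and 23.4 CPM in the Ad-HNF4A libraries (log2 fold change -1.99 ± 0.09, adjusted p = 8.4e-07). TMEM30A, the subunit that P4-ATPase lipid flippases need to leave the endoplasmic reticulum, went from 217, 224 and 219 CPM to 128, 145 and 130 CPM (-0.71 ± 0.06, adjusted p = 6.6e-05). F2RL2, the thrombin receptor PAR3, went from 90.8, 88.1 and 81.3 CPM to 57.1, 65.9 and 47.7 CPM (-0.61 ± 0.10, adjusted p = 0.0086). In each, all Ad-HNF4A libraries lay below all Ad-GFP libraries, as in every gene called lower. RBMS2 was the only member called in its list of 19 RNA-binding and long noncoding regulators beside HNF4A-AS1, which rose, and TMEM30A the only one in its list of 15 flippase genes. Both lists were chosen with earlier results of these data known, so their place in them is no support.

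Among the other large falls, SLAIN1, a microtubule plus-end protein, went from 14.7, 15.7 and 14.3 CPM to 9.58, 10.04 and 6.96 CPM (-0.75 ± 0.14) and lost its call without Ad-GFP replicate 2 (adjusted p = 0.052). PIGX, an enzyme subunit of GPI anchor synthesis, went from 9.64, 11.1 and 10.9 CPM to 5.95, 7.31 and 5.601 CPM (-0.75 ± 0.14), and DCAF5 from 36.6, 46.99 and 35.7 CPM to 26.3, 27.1 and 26.04 CPM (-0.59 ± 0.12). Log2 fold changes were -1.10 ± 0.23 for RP11-658F2.8, -0.70 ± 0.15 for TAF1A-AS1, -0.59 ± 0.14 for AC093010.2, -0.59 ± 0.13 for ADAM22, -0.54 ± 0.13 for RNF8 and -0.52 ± 0.12 for IFT46. These 8 kept their call in at most 3 of the 6 fits, with highest adjusted p-values between 0.061 (PIGX) and 0.16 (IFT46). ARL2-SNX15, a readthrough of neighbouring genes named here after its values were seen, was at 1.503, 0.598 and 1.26 CPM in Ad-GFP and at 0 in every Ad-HNF4A library, and its reads may be shared with ARL2 and SNX15. Among abundant transcripts, GNAS fell by 0.33 ± 0.08 and TPT1 rose (0.33 ± 0.07), each with calls in at most 2 of the 6 fits (highest adjusted p = 0.15 and 0.096).

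Markers of cell types that a xenograft could hold were examined beside these results. Of 15 macrophage markers 10 were tested and 4 rose, CTSS (3.18, 2.99 and 3.48 to 8.71, 9.58 and 8.02 CPM), LAPTM5 (0.0884, 0.109 and 0.0967 to 0.752, 1.16 and 0.908 CPM), FCER1G (0.398, 0.218 and 0.338 to 1.38, 0.929 and 1.16 CPM) and CSF1R (0, 0.0544 and 0 to 0.752, 0.464 and 0.353 CPM). The first 2 held. Over the 10 tested macrophage markers the median log2 fold change was 0.77, and 9 were positive. In 7 of these markers all 3 Ad-HNF4A libraries lay above all 3 Ad-GFP libraries, beside 12.2% of all genes. Their list summed to 319 to 352 CPM in Ad-GFP and 258 to 361 CPM in Ad-HNF4A, nearly all of it LYZ (314 ± 15.9 and 286 ± 59.9 CPM, adjusted p = 0.69). The defining genes CD163, C1QA and C1QB were at 0 in every Ad-GFP library and averaged at most 0.0555 CPM with Ad-HNF4A. LTF rose (0, 0.0544 and 0.29 to 2.004, 1.22 and 2.42 CPM) and S100A9 rose (0.81 ± 0.19) among 3 tested of 8 neutrophil markers, with ELANE and FCGR3B at 0 in all 6 libraries, and CD79A rose (0.0442, 0.0544 and 0 to 0.814, 0.638 and 0.858 CPM) as the only one tested of 10 lymphocyte markers, with MS4A1 and GZMB at 0. SLC4A1 was the only erythroid marker tested of 10, and HBA1, HBA2, ALAS2 and KLF1 were at 0 in all 6 libraries. LAPTM5, CSF1R, FCER1G, LTF, CD79A and SLC4A1 had at most 0.398 CPM in any Ad-GFP library. They entered the test only through another group, so their calls are no support for a cell type. The same holds for their part in the macrophage median, the 9 positive changes and the 7 markers without overlap. VWF was the endothelial marker that rose of 2 tested of 10, with KDR and ERG at 0. COL6A1 rose among 8 fibroblast markers, CIDEC among 2 adipocyte markers and SLC3A1 among 6 kidney tubule markers, and no marker of muscle (2), keratinocytes (4), cholangiocytes (7) or pancreas (1) was called. In bulk tumours, more cells of a type and more RNA per cell cannot be told apart. The sources used here do not say whether reads of the mouse host were removed before counting. The table lists human genes, so a marker at 0 cannot show whether cells of the mouse host were present.

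The 3 falls that held also have a level in the tumours given Ad-K458R, where HNF4A was read at 5300 ± 264 CPM (mean ± SD, n = 3). RBMS2 was at 24.9 ± 1.61 CPM there, TMEM30A at 209.9 ± 2.16 CPM and F2RL2 at 92.5 ± 4.64 CPM, and these were not tested against Ad-HNF4A here.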

How the data were processed

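Total RNA from Huh-7 xenografts was enriched for polyadenylated RNA and sequenced, per the labels' protocols. The deposited table holds gene counts and FPKM values per library from the authors. Trimmomatic and the build mm10 are named in the submitters' processing notes, but the table lists human genes. No source used here gives the aligner, counter or annotation. Of its gene identifiers 98.5% are in GENCODE 29, and of these 94.8% have the same position, so positions are those of the table.

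The counts as deposited by the authors, for 50868 genes and 9 libraries in 3 groups, entered 1 edgeR 4.0.16 quasi-likelihood fit (TMM scaling, robust, filterByExpr, which kept 16697 genes; R 4.3.3), with Benjamini-Hochberg adjustment over all of these and a threshold of 0.05. The FPKM values, normalized by the authors, were used in 1 alternative as log2(FPKM + 1). CPM are counts divided by TMM-scaled library totals and set to a common total. Libraries are the replicates, and nothing says that they came from separate mice, so each p-value reflects only how far these libraries differ, which may be technical. Intervals and the 3-count floor cover counting error only. The script was tested on simulated counts.

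Other fits used DESeq2 1.42.0, limma 3.58.1 (voom, or trend on FPKM), other scaling, other filters, the 6 libraries only, a replicate block, a fold limit of 1.2, and 5 of 6 libraries. Genes named are HNF4A, the 15 largest rises from at least 2 CPM, the 10 largest from under 2 CPM to at least 2 CPM, the 15 largest falls, the 10 most abundant called, and per list up to 6 called members by p, or the 2 of highest CPM where fewer than 2 were called. The largest rises and falls were taken only among called genes whose groups did not overlap. Some genes that this rule names are counted in their lists and not reported here. Others were chosen after their values were seen. Comparison and lists were chosen with earlier results of these data known. Promoter windows are from RefSeq (GRCh38.p14).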

Additional observations from a re-analysis of the deposited data

How the results depend on the processing

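HNF4A was called in all 17 alternative fits, and no result changed direction. The count of genes higher (527) was 333 with the 6 libraries alone, 312 with a fold limit of 1.2 and 328 to 625 when 1 library was left out. DESeq2 gave 685 higher, limma-voom 452 and limma-trend on FPKM 411. The count lower (51) was 130 with DESeq2, 15 with limma-trend, 81 without a filter, 18 with the 6 libraries alone, 22 with the replicate block, 5 with the fold limit and 14 to 131 when 1 library was left out. The count at least 2-fold higher (297) was 36 with limma-trend, where the pseudocount of 1 FPKM shrinks low genes, and the count at least 2-fold lower (3) was 9, 1 and 6 with DESeq2, limma-trend and no filter and 2 to 9 when 1 library was left out. With the replicate block 401 genes were higher, and 393 of the 527 and 18 of the 51 calls were shared. Deviations of same-numbered libraries correlated at 0.035, 0.053 and -0.032, which cannot exclude a shared batch. The labels do not say whether same-numbered libraries are related. Depth limits genes under about 1 CPM. The cause of these differences was not tested.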

Other observations

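The 25 called genes that belong to none of the gene lists, were not described above, averaged at least 5 CPM over the 6 libraries and had the smallest p-values all rose with Ad-HNF4A. They were chosen after their values were seen, by that p. GAL, the neuropeptide galanin, stood at 2.03, 1.74 and 2.03 CPM in Ad-GFP and at 26.3, 24.1 and 22.3 CPM with Ad-HNF4A (log2 fold change 3.64 ± 0.13, edgeR adjusted p = 3.3e-07). SMPD3, a neutral sphingomyelinase, went from 0.751, 0.816 and 0.918 CPM to 10.7, 9.58 and 11.6 CPM (3.67 ± 0.15), and SEC14L2, a binding protein of vitamin E and other lipids, from 1.68, 1.63 and 1.74 CPM to 19.2, 15.5 and 19.02 CPM (3.40 ± 0.15). In all 3 genes the libraries of a group lay close together and far from the other group. COL7A1, the collagen of anchoring fibrils, went from 1.06, 1.47 and 0.918 CPM to 11.96, 10.7 and 11.8 CPM (3.33 ± 0.17), and TLR2, a receptor for bacterial lipoproteins, from 1.72, 1.69 and 1.64 CPM to 7.58, 8.01 and 11.1 CPM (2.40 ± 0.18). Another peptide hormone gene, NMB (neuromedin B), went from 17.3, 15.7 and 15.9 CPM to 48.98, 34.6 and 48.2 CPM (1.43 ± 0.13), and SYT7, a calcium sensor of exocytosis, from 21.6, 25.1 and 24.1 CPM to 53.05, 47.2 and 65.5 CPM (1.23 ± 0.12).

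Organelle and metabolic genes were also among the 25. SLC8B1, the sodium and calcium exchanger of mitochondria, rose from 10.5, 9.84 and 10 CPM to 21.4, 20.3 and 23.3 CPM (1.09 ± 0.09), CTNS, the lysosomal cystine exporter, from 22.5, 23.5 and 22.7 CPM to 40.6, 43.8 and 45.9 CPM (0.92 ± 0.09), and HKDC1, a hexokinase, from 8.27, 6.74 and 10.4 CPM to 21.98, 21.9 and 20.7 CPM (1.34 ± 0.14). TFPI2, a serine protease inhibitor, rose by 0.94 ± 0.09, PTGDR2, a receptor of prostaglandin D2, by 1.21 ± 0.13, SUSD2, a membrane protein, by 1.47 ± 0.13, and RPS6KA1, a ribosomal S6 kinase, by 0.81 ± 0.08. All 14 genes named here were called in each of the 6 fits that left out 1 library.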
